A study of Noccaea caerulescens and Thlaspi montanum with 10 samples.

Results

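Among leaf transcripts of 3 wild Noccaea plants, 112 were read in every library of 2 of the plants and had almost no reads in the third, the Viviez population of Noccaea caerulescens. They were chosen by their own read counts from 41841 transcripts. A member had at least 1 CPM, a read count scaled to the library's total, in both libraries of N. caerulescens subsp. firmiensis and in both of N. montana. It had at most 3 reads summed over both Viviez libraries. The low Viviez values are therefore what selected the members and are given as a description, without a test.

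The field leaves came from 2 separate plants each of firmiensis, labelled a nickel hyperaccumulator, and of Viviez and N. montana, both labelled as not accumulating nickel. All 6 were wild plants of unstated age and genotype, growing on serpentine soil or a zinc mining site (the labels do not say which for each plant), with no treatment named and 1 site for each of the 3 plants. Firmiensis was collected at Puy de Wolf in July, Viviez at Viviez and N. montana at Suc de Clava in June of the same year, so site cannot be told apart from plant, nor month from plant where firmiensis is compared, while Viviez and N. montana share the month. The other 4 libraries of the series, from hydroponic firmiensis and N. montana grown with 37.5 µM NiCl2 and 20 µM Fe-HBED for 7 weeks, were not analysed here.

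Nickel hyperaccumulators take up nickel from metal-rich soils and store it in their shoots, and species of Noccaea are among the plants in which this trait is studied. Populations of N. caerulescens differ in the metals they accumulate, while N. montana is a separate species of the same genus. A transcript is counted only where its gene is present and expressed and where its reads are similar enough to align to the reference, and from read counts these cannot be told apart. The transcripts here are numbered pieces of a de novo assembly made from firmiensis, and the files pair them with no gene names, sequences or lengths. None can be given a function, the leaf label could not be checked against marker genes, no pathway list could be followed, and levels of different transcripts are compared only as reads, not per length.

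Each library held 59476715 to 68439128 counted reads, so that 1 CPM stood for 59.5 to 68.4 reads, and no library of a plant was a copy of the other (a chi-square test of their counts gave 101 or more per degree of freedom for each plant). At this depth the limit of 3 reads over both Viviez libraries corresponds to 0.0244 CPM. Counting error is all that this limit and the intervals below cover. The intervals pool both individuals of a plant. They take no account of the choice of members by low Viviez reads, so they are a description and no test.

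The members were a small part of a large common set. In all, 17648 transcripts had at least 1 CPM in the 4 firmiensis and N. montana libraries, and the 112 were 0.635% of these. Turned around, 82 of 17609 transcripts (0.466%) with at least 1 CPM in firmiensis and Viviez had at most 3 reads in N. montana, and 7 of 17326 (0.0404%) read in Viviez and N. montana had at most 3 in firmiensis. The assembly was made from firmiensis, and its part in the low last number was not tested. The difference between these shares was not tested either.

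No read at all was the most frequent Viviez value among the members. In Viviez 68 members had 0 reads, 13 had 1, 21 had 2 and 10 had 3. Just beyond the limit, 9 transcripts had 4 reads and 10 had 5, and all transcripts with 4 to 10 Viviez reads numbered 47, fewer than those with 0. From there the numbers rose, with 58 at 11 to 20 reads, 155 at 21 to 50 and 310 at 51 to 100, and 12141 had over 1000. The 10 members with 3 reads had a median of 6.41 CPM over the other 4 libraries, and the 9 transcripts just outside, with 4 reads, had 4.57 CPM. On the other side of the rule, 9 members had their lowest firmiensis or N. montana value at 1 to 1.1 CPM, and 10 transcripts with at most 3 Viviez reads missed it at 0.9 to 1 CPM.

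**Figure D1:**
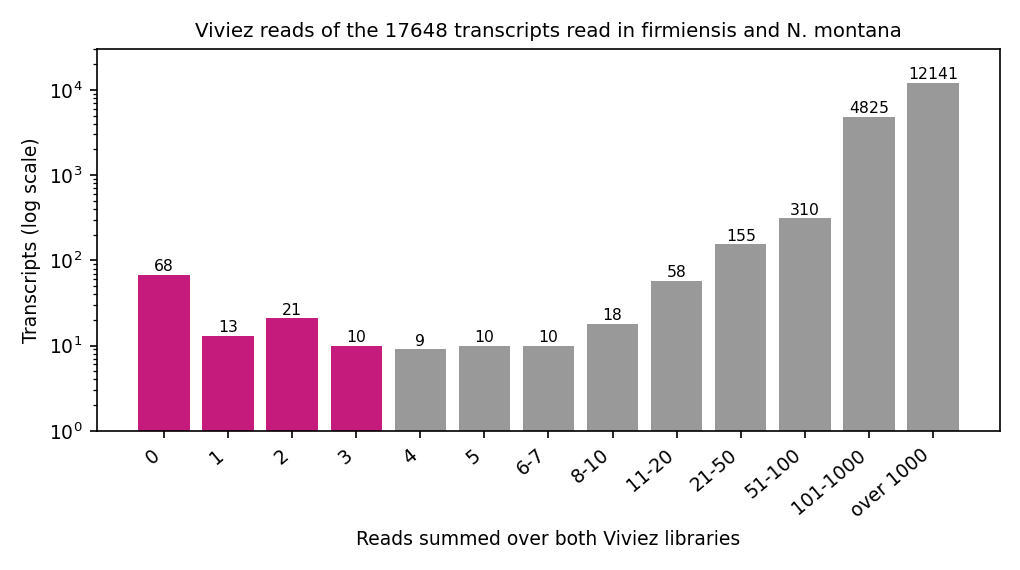
Bars give the number of transcripts (log axis) by reads summed over both Viviez libraries, for the 17648 transcripts with at least 1 CPM in the 4 firmiensis and N. montana libraries. The members are the pink bars at 0 to 3 reads; 68 stand at 0, more than the 47 at 4 to 10 reads.

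The rule itself fixed a wide gap to the other plants for every member. The smallest folds and expected reads below lie near the least that it allows. Had Viviez held a member at the lowest of its 4 other levels, 126 to 10388 reads would have been counted over both Viviez libraries (median 269.5), against 0 to 3 observed. Taking 3 reads over both Viviez libraries as the limit, the 68 members without a Viviez read were at least 48.7-fold to at least 15001-fold higher in firmiensis, and at least 42.5-fold to at least 6224-fold higher in N. montana. The other 44 had 1 to 3 Viviez reads. Their ratio of firmiensis to Viviez ranged from 83.5 to 16650, and the exact 95% counting intervals of these ratios had lower ends of 28.2 to 2988. In N. montana the ratio ranged from 65.8 to 3173, with lower ends of 22.2 to 878. All 112 passed the filter on low counts. They were called higher in firmiensis than in Viviez (edgeR adjusted p under the 0.05 threshold, where 9.5% of all 32989 transcripts tested were called) and lower in Viviez than in N. montana (20.5% called), which the rule itself prepared and which is no separate evidence. In such bulk leaf samples, fewer cells of a type and less RNA per cell cannot be told apart.

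The rule sums both Viviez individuals, so each had to lack every member. In replicate 1, 33 members had reads, none more than 2, and in replicate 2, 26 had reads, none more than 3. Reads were found in both individuals for 15 members. Of the 21 members with 2 reads, 14 had both in the same library, and the part of read pairs counted as 2 reads was not tested. The residual reads did not gather on the members with most reads elsewhere: members with 0 Viviez reads had a median of 5.27 CPM over the other 4 libraries, and those with 1 to 3 had 4.88 CPM. Viviez replicate 2 carries a different run label number from the other 5 field libraries, and the members summed to 47 reads in replicate 1 and 38 in replicate 2.

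Few transcripts were missing from 1 Viviez individual and well read in the other. Of the 17648, 5 had at most 3 reads in replicate 1 and at least 1 CPM in replicate 2, and 13 showed the reverse, against 112 at the limit over both. With replicate 1 alone as the Viviez sample, 144 transcripts met the rule, 32 beyond the members, and these 32 had a median of 4.5 reads in replicate 2. With replicate 2 alone, 186 met it, and the 74 beyond the members had a median of 10.5 reads in replicate 1. Most of the additional transcripts thus had few reads in the second individual as well. Transcripts missing from 1 individual only numbered 14 and 9 in N. montana and 16 and 11 in firmiensis by the same counts.

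**Figure D2:**
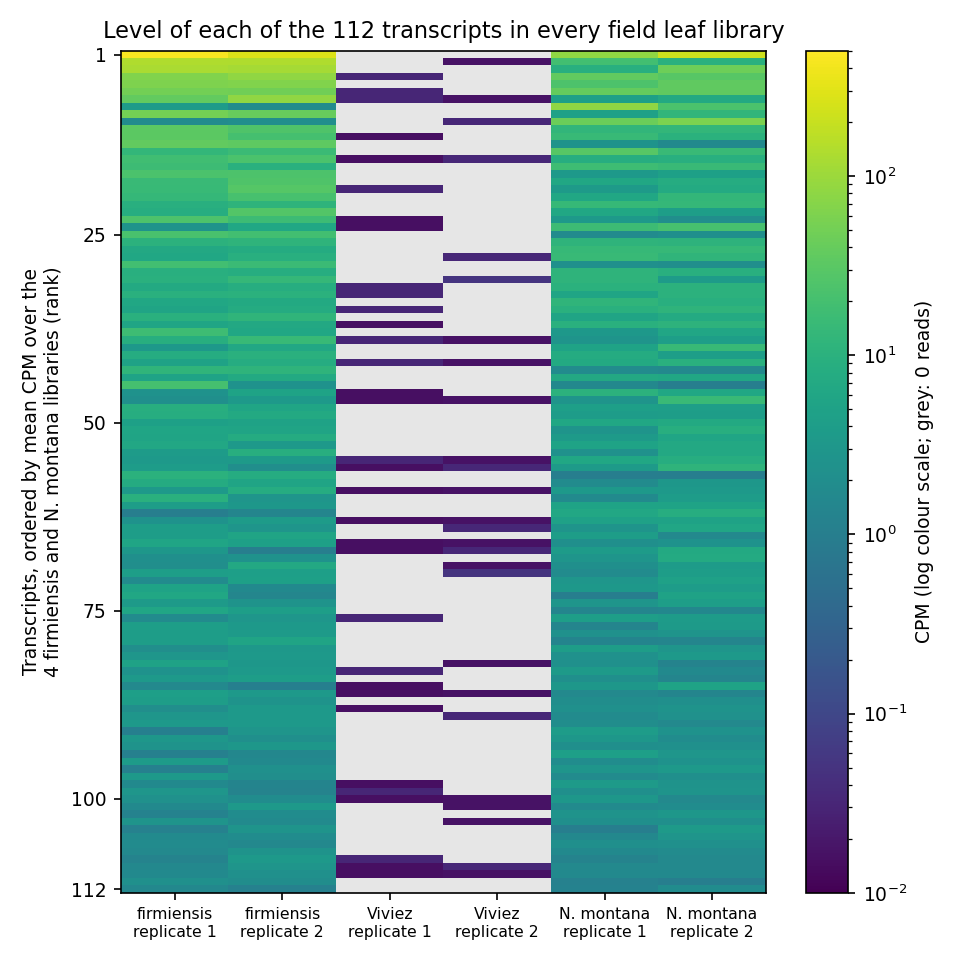
Each row is 1 of the 112 members, ordered by mean CPM over the 4 firmiensis and N. montana libraries, and each column a field leaf library; colour gives CPM on a log scale and grey 0 reads. The Viviez columns are grey or under 0.0503 CPM throughout, and no member falls below 1.03 CPM in the other 4 columns.

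The members were modest in level where they were read, with a few strong exceptions. Their mean over the 4 firmiensis and N. montana libraries had a median of 5.15 CPM and ran from 1.45 to 259.8 CPM, against a median of 21.0 CPM for the 17648. By class of this mean, the members were 7 of 350 transcripts (2%) at 1 to 2 CPM, 48 of 2110 (2.27%) at 2 to 5 CPM, 46 of 6100 (0.754%) at 5 to 20 CPM and 11 of 9088 (0.121%) above 20 CPM. The limit of 3 reads lies a larger fold below a high level than below a low one, so the rule asks more of a strong transcript. At least 5 CPM in the mean of both plants was reached by 33 members, 10 CPM by 12 and 30 CPM by 4. All members together took 0.164 ± 0.0079% of firmiensis reads and 0.094 ± 0.013% of N. montana reads (SD, n = 2).

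Contig_38941 had the most reads. It stood at 451 CPM in firmiensis replicate 1 and 284 CPM in replicate 2, at 84.6 CPM and 219.7 CPM in N. montana, and had 0 reads in both Viviez libraries. It was high in all 4 libraries of the other two plants, and at the lowest of these levels 10388 Viviez reads would have been counted. Without it, the members took 0.127 ± 0.004% of firmiensis and 0.0788 ± 0.0037% of N. montana reads. Its log2 fold change of firmiensis against N. montana was 1.61 ± 0.53 (SE) and missed the threshold (edgeR adjusted p = 0.0746, from 0.0162 to 0.245 over 14 alternatives). The upper end came from a stricter test against a log2 fold change of 1. Without N. montana replicate 2 the log2 fold change was 2.42.

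Contig_14864 was the second by its lower plant mean and far steadier. It stood at 49.6 and 48.0 CPM in the firmiensis replicates and at 38.7 and 35.5 CPM in those of N. montana, with 2 reads in Viviez replicate 1 and 0 in replicate 2. The firmiensis level was 2992 times that of Viviez (exact 95% counting interval 828 to 24714) and the N. montana level 2276 times (629.8 to 18800). Its libraries did not overlap between firmiensis and N. montana, but the log2 fold change of 0.70 ± 0.33 (SE) missed the threshold (edgeR adjusted p = 0.15). Apart from a stricter test against a log2 fold change of 1, adjusted p in the alternatives ran from 0.0309 (DESeq2) to 0.383 (edgeR, library totals alone).

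Some members were read at nearly one level in all 4 libraries outside Viviez. The highest of the 4 was within 2-fold of the lowest for 31 of 112. The steadiest was contig_1311, at 10.5 and 11.2 CPM in firmiensis and 11.5 and 10.7 CPM in N. montana, a ratio of highest to lowest of 1.09. Contig_13638 followed at 5.36 and 7.21 CPM in firmiensis and 6.88 and 6.24 CPM in N. montana, a ratio of 1.34. Neither had a read in Viviez, where the lowest of these levels would have given 1290 and 658 reads. At the other end, 10 members had a highest value over 10-fold above the lowest.

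The contrast that the rule did not set up is firmiensis against N. montana, the hyperaccumulator against the more distant plant, both of which had to reach 1 CPM. In it 23 members were higher in firmiensis and 4 lower, and 85 did not pass the threshold (edgeR quasi-likelihood test, Benjamini-Hochberg adjusted p under 0.05 over all 32989 transcripts tested). The share called, 27 of 112 or 24.1%, lay near the background of 30.9% over all transcripts tested and 28.5% over the 17648. The directions were less even: 20.5% of members were called higher and 3.57% lower, where 15.8% and 15.1% of all transcripts tested were, and 15% and 13.4% of the 17648. The members' median log2 fold change was 0.66 (quartiles -0.12 and 1.40), beside 0.02 for the 17648 and -0.0044 for all tested. A value above 0 was found for 79 members (70.5%) and for 51.2% of the 17648. No test of the members as a group was made.

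By the median log2 fold change, the members leaned more towards firmiensis than the 17648 in each class of level. The median log2 fold change of members against that of the 17648 was 0.54 against 0.25 at 1 to 2 CPM, 0.41 against 0.09 at 2 to 5 CPM, 0.67 against -0.08 at 5 to 20 CPM and 1.51 against 0.05 above 20 CPM. In the class at 5 to 20 CPM, 12 of 46 members were called higher and 1 lower (26.1% and 2.17%), against 13.3% and 15.7% of all 6100. Above 20 CPM 6 of 11 members were called higher and 2 lower (54.5% and 18.2%), against 18% and 14.1% of all 9088, so that the lower share was near the background of the class. At 2 to 5 CPM 5 of 48 members were called higher, near the background of that class (10.4% against 9.62%). Only 1 was called lower (2.08% against 6.16%). At 1 to 2 CPM none of the 7 members was called, and 63.7% of all 350 transcripts of that class stood above 0.

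The members' lean beside the 17648 depended little on scaling, but the log2 fold changes themselves moved with it. The number of calls depended on single libraries. Scaling to library totals alone moved the median log2 fold change of all transcripts tested by -0.30. The members then had a median of 0.33 beside -0.28 for the 17648, with 66 of 112 above 0, 19 called higher and 4 lower, where all transcripts tested turned from 51.1% to 36.9% higher among calls. Without N. montana replicate 1, 12 members were called higher, and without firmiensis replicate 1, 15. The 4 lower calls became 1 without firmiensis replicate 1 and 2 without N. montana replicate 2. A plant then has 1 library. Of the 23 higher calls 10 were made in each of the 6 fits that leave out a library, and of the 4 lower calls 1 was, while all 27 kept their sign in the 14 alternatives.

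**Figure D3:**
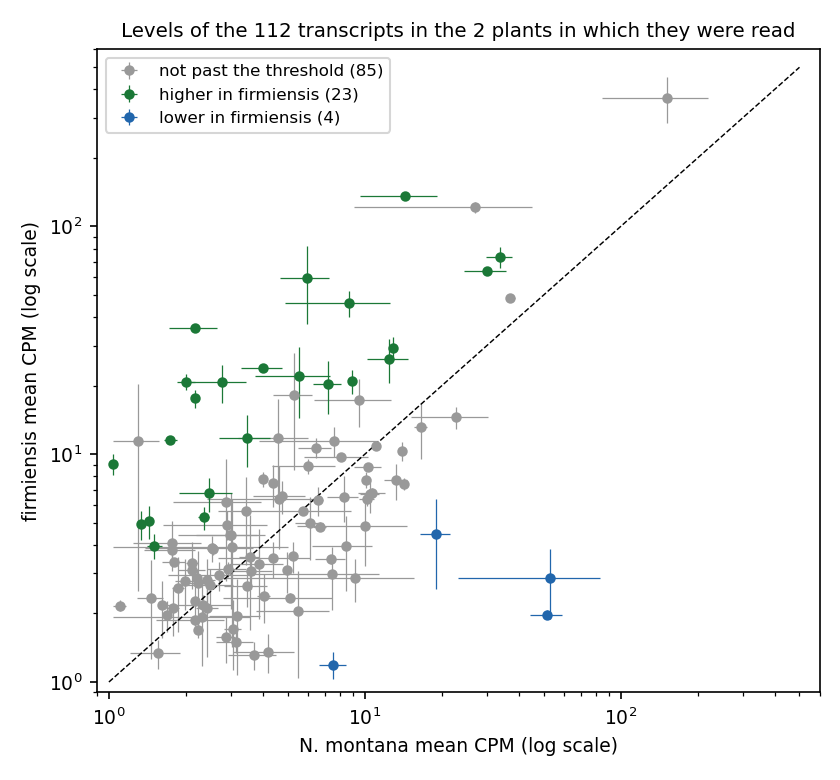
Each point is 1 of the 112 members at its mean CPM in N. montana and firmiensis (log axes, library totals); bars span the 2 individuals and the dashed line marks equal levels. The 23 members called higher in firmiensis lie above the line and the 4 called lower lie below it, the rest around it.

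The 23 members higher in firmiensis had a median log2 fold change of 2.18, from 1.39 to 4.34, and a median level of 20.9 CPM in firmiensis and 3.48 CPM in N. montana. For all 23 the libraries did not overlap between the plants. By library totals, 70 of 112 members (62.5%) had no overlap, 44 higher and 26 lower in firmiensis, beside 70.5% of the 17648 (23.9% higher, 46.6% lower). The farthest apart was contig_18681, at 37.3 and 34.5 CPM in firmiensis and 2.64 and 1.71 CPM in N. montana, with no read in Viviez. Both firmiensis plants stood far above both N. montana plants, with a log2 fold change of 4.34 ± 0.37 (SE, edgeR adjusted p = 0.00311, at most 0.0146 over 14 alternatives). Contig_6370 stood at 22.6 and 19.2 CPM in firmiensis and at 1.84 and 2.18 CPM in N. montana, again with no read in Viviez. The plants differed by a log2 fold change of 3.69 ± 0.33 (SE, edgeR adjusted p = 0.00346, at most 0.0199 over 14 alternatives).

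The 4 members lower in firmiensis had log2 fold changes from -4.40 to -1.81. Contig_21858 stood at 1.88 and 2.06 CPM in firmiensis and at 44.4 and 59.1 CPM in N. montana, with 2 reads in Viviez replicate 2. The groups were well apart, at a log2 fold change of -4.40 ± 0.44 (SE, edgeR adjusted p = 0.00284, at most 0.0147 over 14 alternatives). Contig_11934 stood at 3.85 and 1.88 CPM in firmiensis and at 82.8 and 23.2 CPM in N. montana, with no read in Viviez. Its individuals differed in both plants, and firmiensis was lower by a log2 fold change of -3.89 ± 0.80 (SE, edgeR adjusted p = 0.0224). It missed the threshold without N. montana replicate 1 (-2.63, edgeR adjusted p = 0.0594), without firmiensis replicate 1 (-4.62, 0.0586) and without firmiensis replicate 2 (-3.39, 0.0818), and leaving out N. montana replicate 2 gave -4.54. Both transcripts were thus near the lower limit of 1 CPM in firmiensis and strong in N. montana.

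Members with and without residual Viviez reads did not part in this contrast by their counts: 15 of 68 with 0 Viviez reads were called in either direction (22.1%) and 12 of 44 with 1 to 3 reads (27.3%), both beside 28.5% of the 17648. Their median log2 fold changes were 0.75 and 0.50. The difference was not tested.

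By the median, individuals of a plant lay farther apart in the members than in the 17648. The median absolute log2 ratio of replicate 1 to replicate 2, after TMM scaling, was 0.51 for members and 0.32 for the 17648 in firmiensis, and 0.42 and 0.29 in N. montana. The members are lower in level, so the medians were also taken within classes of level, members first. In firmiensis they were 0.60 and 0.40 at 2 to 5 CPM and 0.37 and 0.34 at 5 to 20 CPM. In N. montana they were 0.49 and 0.37 at 2 to 5 CPM, 0.40 and 0.31 at 5 to 20 CPM, and 0.55 and 0.27 above 20 CPM. In that top class 5 of 11 members differed by more than 1 on the log2 scale between the N. montana plants, as did 7.32% of its 9088 transcripts, and 1 of 11 did between the firmiensis plants (7.44% of the class). At 1 to 2 CPM the order was reversed in N. montana, at 0.11 for 7 members and 0.36 for the class. With 2 individuals a plant, these are descriptions.

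**Figure D4:**
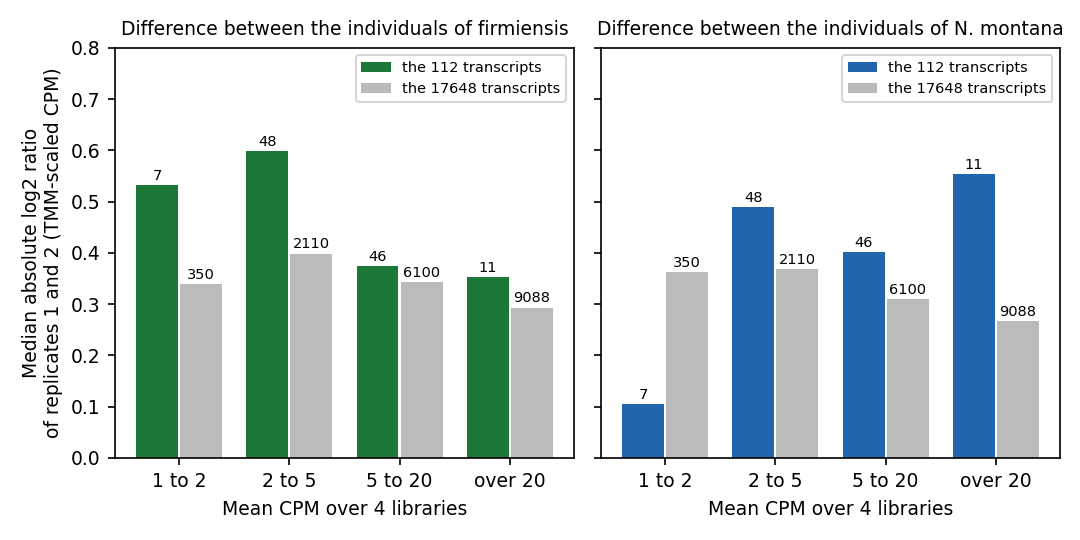
Bars give the median absolute log2 ratio between the individuals of firmiensis (left) and N. montana (right), for the members (coloured) and the 17648 transcripts they were drawn from (grey). Classes are of mean CPM over the 4 libraries of both plants, and numbers above bars count transcripts. The coloured bar is higher in each class except N. montana at 1 to 2 CPM, which holds 7 members.

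The members least alike between individuals show how far 1 plant can set a group mean. Contig_27554 stood at 20.3 CPM in firmiensis replicate 1 and 2.51 CPM in replicate 2, an 8.10-fold ratio, and at 1.56 and 1.04 CPM in N. montana, with no Viviez read. Its log2 fold change against N. montana was 3.50 ± 1.09 (SE, edgeR adjusted p = 0.0649, from 0.00252 to 0.253 over 14 alternatives), 1.15 without firmiensis replicate 1 and 4.37 without firmiensis replicate 2 (edgeR adjusted p = 0.0123). Contig_15430 read 2.73 and 15.6 CPM in the N. montana plants, a 5.70-fold ratio, and 2.24 and 3.47 CPM in firmiensis, with 1 read in each Viviez library. The fit gave a log2 fold change of -1.37 ± 0.75 (SE, edgeR adjusted p = 0.209, from 0.0325 to 0.684 over 14 alternatives), -2.11 without N. montana replicate 1 (edgeR adjusted p = 0.0325) and 0.32 without N. montana replicate 2.

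Some members carry consecutive numbers in the assembly. Of the numbers directly before or after a member, 118 belonged to the 17648, and 8 of these (6.78%) were members themselves, where members are 0.635% of the 17648. These are 4 pairs of neighbours, each counted from both sides, as many pairs as among the 82 transcripts missing only from N. montana. The 0.635% is not matched for level or number. Members were 2.27% of the transcripts at 2 to 5 CPM, and their median number was 16052, beside 10548 for the 17648. The sources used here do not say what the numbering follows. Over the 11999 pairs of consecutive numbers among the 17648, log2 mean CPM correlated weakly between neighbours (Pearson r = 0.182, Spearman rho = 0.19, across pairs that share libraries and depth). For the log2 ratio of firmiensis to N. montana the correlation was near nil (Pearson r = 0.0326, Spearman rho = 0.0267). Contig_1039 and contig_1040, singled out after their values were seen, are the pair with most reads. Contig_1039 stood at 65.7 and 81.6 CPM in firmiensis and 37.8 and 29.7 CPM in N. montana, with 2 Viviez reads. Contig_1040 stood at 6.41 and 7.11 CPM in firmiensis and 12.0 and 9.38 CPM in N. montana, with none. Both neighbours were missing from Viviez. Their log2 fold changes between the other plants differed in sign, but only that of contig_1039 passed the threshold. They were 1.42 ± 0.34 (SE, edgeR adjusted p = 0.0253, from 1.81e-05 to 0.171 over 14 alternatives, 8 of which made the call) and -0.36 ± 0.32 (SE, edgeR adjusted p = 0.43). Of the other pairs, one had higher means in firmiensis for both neighbours, one lower means for both, and one was split.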

How the data were processed

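Per the file headers, the authors deposited raw read counts, 1 per transcript and library, on a transcriptome assembled de novo from firmiensis, per the series' design text. Per the labels' protocols, leaves were stabilised in RNAlater, RNA was purified with an RNeasy kit, and libraries were made with the TruSeq Stranded mRNA kit and sequenced as Illumina paired ends. The sources used here do not name the assembler, aligner, counter or filters. Of 41843 transcripts, 2 had empty cells and were left out.

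CPM are counts over library totals. Differences were tested with edgeR 4.0.16 in R 4.3.3, by filterByExpr (minimum count 10; 32989 transcripts kept, all 112 members among them), TMM scaling (factors 0.865 to 1.17) and a quasi-likelihood fit of all 6 libraries with plant as the only factor, which leaves 3 residual degrees of freedom. P-values were adjusted by Benjamini-Hochberg over all transcripts. The SE is the log2 fold change over the square root of F. Alternatives used DESeq2 1.42.0 and limma 3.58.1, and the procedure was tested on simulated data.

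The members and the naming rule were chosen with earlier results of these data known. The rule names the 2 members highest in both plants, the 2 most different each way between firmiensis and N. montana, the 2 steadiest, and the most variable in each plant.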

Additional observations from a re-analysis of the deposited data

How the results depend on the processing

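The number of members follows the limits that define them: it was 195 with presence at 0.5 CPM, 64 at 2 CPM and 26 at 5 CPM, 68 with 0 Viviez reads allowed and 159 with 10. With TMM library sizes it was again 112, of which 107 were the same transcripts. Leaving out 1 library gave 125 to 186 transcripts, the most without Viviez replicate 1. It only loosens the rule, so the 112 had to be among them each time. The count of members higher in firmiensis than in N. montana was 23, and 35 with DESeq2, 32 with limma voom and 11 with glmTreat against a log2 change of 1. Leaving out 1 library gave 12 to 20 higher and 1 to 3 lower members. The test against a log2 change of 1 is the stricter test, and leaving out 1 library leaves a plant with 1 individual. The cause of these changes was not tested. Over the 14 alternatives the members' median log2 fold change stayed above that of the 17648 transcripts. Over all 112 members, 79 stood above 0 in the main fit and 66 with library totals alone. Among the transcripts picked by the naming rule, 3 that were not called changed sign. Contig_1311 and contig_13638 stood at -0.0336 and -0.0613 with library totals alone. Contig_15430 ranged from -2.11 without N. montana replicate 1 to 0.32 without N. montana replicate 2.

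The labels number the individuals alike in each plant without saying that a number is shared. Deviations of same-numbered libraries correlated at 0.0155 for firmiensis and Viviez, -0.0598 for firmiensis and N. montana and -0.0374 for Viviez and N. montana, so the numbers were not taken as pairs. With a replicate block 19 members were higher and 4 lower. P-values rest on 2 plants a group, and the limit of 3 Viviez reads that defines a member corresponds to 0.0244 CPM.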
